A study of Mus musculus with 4 samples.

Results

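The 81 genes described here carry symbols used for nuclear-encoded subunits of the mitochondrial respiratory chain (complexes I to IV) and of the ATP synthase (complex V). A symbol does not show that a gene encodes a subunit, and Ndufb4c had no protein-coding transcript in the annotation used. They were chosen by symbol from the Nduf, Sdh, Uqcr, Cox and Atp5 families, without pseudogene names, and had to reach a log2 expression value of 0 in at least 2 of the 4 libraries. Of 87 matching symbols 81 met this rule, out of 17303 genes that met the same level and were tested, in a table of 55339 rows. Complex I had 37 members, complex II 4, complex III 8, complex IV 15 and complex V 17. The other symbols were Cox7b2, Cox8b, Cox8c and Ndufa11b, which the table lists at exactly 0 in all 4 libraries and which were read as having no value, and Cox6c2 and Ndufs6b, which were too low. Each of the 81 genes lay above 0 in every library, so none was admitted through 1 group only.

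Polyadenylated RNA had been sequenced from leukemia cells of the bone marrow of C57BL/6 mice. The knockout group comprised 2 libraries of genotype YBX1-/- (cKO in their titles, replicates 1 and 3), and the other group comprised 2 WT libraries (replicates 4 and 5). Paired values are given in the order of these replicate numbers, as the knockout pair and the WT pair. The title of knockout replicate 3 begins with RNA-seq2 and those of the other 3 libraries with RNA-seq1, and this number cannot be told apart from that library. The age of the mice, the event that drove the leukemia, the Cre line that the title cKO may imply and the number of animals per library were not given in the labels. Whether the replicates came from separate mice is likewise not labelled, so a p-value reflects only how these 4 samples vary, and that variation may be technical. The values are the authors' normalized log2 expression per gene. No counts were given, so depth is unknown. Whether the values were scaled to transcript length is not given in the sources used here. Levels are therefore mainly compared between libraries, and an order of genes by level is only rough. In such bulk RNA a smaller share of a cell type and less RNA per cell cannot be told apart.

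As background, complex I takes electrons from NADH and complex II from succinate. Complex III passes them from ubiquinol to cytochrome c, complex IV hands them to oxygen, and the proton gradient built by complexes I, III and IV drives ATP synthesis in complex V. Complex II is encoded wholly in the nucleus, whereas the other complexes also hold subunits encoded by mitochondrial DNA. The transcription factors NRF1, GABP (an ETS family factor) and YY1 are known regulators of many of the nuclear genes, and myeloid leukemia cells are known to depend on oxidative phosphorylation. YBX1 is an RNA-binding protein of the cold-shock domain family, and its role in transcript stability and in the survival of leukemia cells is the question the series names.

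Promoter sequences are shown because the genes share these regulators, and each holds a short motif of 1 of them. The windows run from 250 bases before to 50 bases after the gene start in RefSeq (GRCm38.p6), and 66 of the 81 genes had one. Exact matches were sought on both strands for the NRF1 core GCATGCGC, the ETS core CCGGAAGT and the YY1 core AAGATGGC. The NRF1 core was found in 10 of the 66 promoters (15.2%), against 3.05% of all 27025 promoters and 5.58% of the 11210 promoters of tested genes. The YY1 core was also found in 10 (15.2%), against 3.19% of all promoters and 5.09% of those of tested genes. The ETS core was found in 5 (7.58%), against 4.31% and 8.73%. At least 1 of the cores lay in 24 of the 66 (36.4%), against 9.91% and 18%. A match is a description of letters and not of a bound site. Those printed, up to 2 for a motif, belong to the genes with the widest gap between the knockout pair and lower WT values. Capitals mark the motif on either strand. The genes are Atp5k (chr5:108434350-108434649, minus strand), Ndufa6 (chr15:82354242-82354541, minus strand), Ndufs3 (chr2:90904672-90904971, minus strand), Ndufs6 (chr13:73328433-73328732, minus strand) and Ndufs7 (chr10:80249199-80249498, plus strand). In Atp5k the NRF1 core occurs on both strands in overlapping positions, and in Ndufs3 the ETS core is read on the opposite strand.
Atp5k: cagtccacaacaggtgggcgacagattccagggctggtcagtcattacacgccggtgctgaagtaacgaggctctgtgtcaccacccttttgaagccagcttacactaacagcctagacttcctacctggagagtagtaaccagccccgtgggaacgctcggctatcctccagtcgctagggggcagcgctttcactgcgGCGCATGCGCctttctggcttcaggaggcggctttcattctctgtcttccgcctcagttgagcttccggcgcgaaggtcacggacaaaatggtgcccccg
Ndufa6: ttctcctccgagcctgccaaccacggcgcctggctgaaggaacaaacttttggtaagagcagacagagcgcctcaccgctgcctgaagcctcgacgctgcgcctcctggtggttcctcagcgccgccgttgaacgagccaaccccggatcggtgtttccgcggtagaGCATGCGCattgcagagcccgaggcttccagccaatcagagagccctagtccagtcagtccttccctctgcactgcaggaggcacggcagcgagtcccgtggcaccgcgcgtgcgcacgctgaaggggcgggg
Ndufs3: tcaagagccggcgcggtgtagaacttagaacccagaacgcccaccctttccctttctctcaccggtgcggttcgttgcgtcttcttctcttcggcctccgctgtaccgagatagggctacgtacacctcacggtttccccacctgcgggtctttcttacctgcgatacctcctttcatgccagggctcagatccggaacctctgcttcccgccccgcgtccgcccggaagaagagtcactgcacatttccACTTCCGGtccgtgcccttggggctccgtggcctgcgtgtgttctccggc
Ndufs6: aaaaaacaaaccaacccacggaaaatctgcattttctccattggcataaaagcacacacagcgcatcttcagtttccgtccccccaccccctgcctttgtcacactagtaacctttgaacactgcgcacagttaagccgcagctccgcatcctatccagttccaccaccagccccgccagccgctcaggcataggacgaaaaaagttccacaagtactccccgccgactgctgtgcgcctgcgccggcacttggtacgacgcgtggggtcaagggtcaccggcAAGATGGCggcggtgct
Ndufs7: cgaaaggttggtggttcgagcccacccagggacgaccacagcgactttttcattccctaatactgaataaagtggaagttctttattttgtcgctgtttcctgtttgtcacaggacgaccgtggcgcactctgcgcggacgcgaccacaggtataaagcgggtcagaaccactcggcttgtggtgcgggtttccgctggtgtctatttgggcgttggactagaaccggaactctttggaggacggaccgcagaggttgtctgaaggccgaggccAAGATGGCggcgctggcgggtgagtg

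The libraries were checked first. Ybx1 had log2 values of 7.29 and 8.33 in the knockout pair, against 19.70 in WT replicate 4 and 10.002 in WT replicate 5. The knockout pair was thus lower than the WT pair without overlap, as in 18.8% of all tested genes. The limma difference of Ybx1 was -7.04 (SE 3.49, adjusted p = 0.826), and -2.19 without WT replicate 4. Ybx1 itself was not called, so a lack of calls cannot show that other genes were unchanged. Of the 4 libraries, WT replicate 4 was unlike the rest. Over the 81 genes its Pearson's r with each other library was 0.54 to 0.56, whereas the other 3 libraries had r of 0.98 to 0.99 with each other (across genes, which are not independent replicates). In WT replicate 4, 28 of the 81 genes lay between 16.71 and 21.28 on the log2 scale. The same 28 genes lay between 8.28 and 12.98 in the knockout libraries and between 8.40 and 13.03 in WT replicate 5. Relative to the median of the other 3 libraries, WT replicate 4 was over 3 log2 higher in 29 members (35.8%), against 11.3% of all tested genes. It was over 1 log2 lower in 34 members (42.0%), against 29.3% of all tested genes and 56% of the tested genes whose median in the other libraries was at least 5. Between these levels the library was almost empty, with 1 of the 81 genes from 10 to 15. No counts were given, so whether the high values of WT replicate 4 are measured levels or came about in processing cannot be told apart. The main counts, medians and limma differences below are therefore given with and without WT replicate 4, and the values without it rest on 1 WT library. Counts for the length classes and the markers, and some medians, are given against WT replicate 5 only.

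Against WT replicate 5 the genes of the respiratory chain lay mostly slightly higher in the knockout libraries, but no gene passed the test. Both knockout values exceeded WT replicate 5 in 58 of 81 genes (71.6%), against 41.8% of all tested genes and 39.5% of those of at least log2 5. Both lay below it in 5 genes, against 33.4% and 35% of the same backgrounds. The median difference between the knockout mean and WT replicate 5 was 0.38 log2 over the members and 0.07 over all tested genes. Of the 81 differences 73 were positive, against 9326 of 17303 tested genes and 4680 of the 9058 of at least log2 5. Single differences ran from -0.72 (Cox4i2) to 1.003 log2 (Cox7a2l), the largest of them a 2.0045-fold higher level.

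With both WT libraries the picture was less clear. Both knockout values lay above both WT values in 33 genes (40.7%), against 17.3% of all tested genes and 31.1% of those of at least log2 5. Both lay below both WT values in 4 genes (Cox4i2, Ndufa8, Ndufs1 and Uqcrc1), against 18.8% and 8.85%. The median limma difference over the members was 0.54 log2, against -0.09 for all tested genes and 0.61 for those of at least log2 5. A member's sign in this fit followed its value in WT replicate 4: all 28 genes at 15 or more in that library had a negative difference, but only 3 of them were negative without it. Limma called 0 of 17303 genes and 0 members after Benjamini-Hochberg adjustment (threshold 0.05). The smallest adjusted p was 0.826, and 651 genes but 0 members had an unadjusted p under 0.05. Without WT replicate 4 there were again 0 calls, with 1799 genes and 2 members (Cox7a2l and Ndufb5) under an unadjusted p of 0.05. Without WT replicate 5, limma called 59 members, 30 higher (against 14.2% of tested genes) and 29 lower (against 14.5%), in a fit whose only WT library was replicate 4. Without knockout replicate 1 it called 0 members, against 0% of tested genes higher and 0.15% lower, and without knockout replicate 3 also 0, against 0.0116% and 0.497%.

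**Figure D1:**
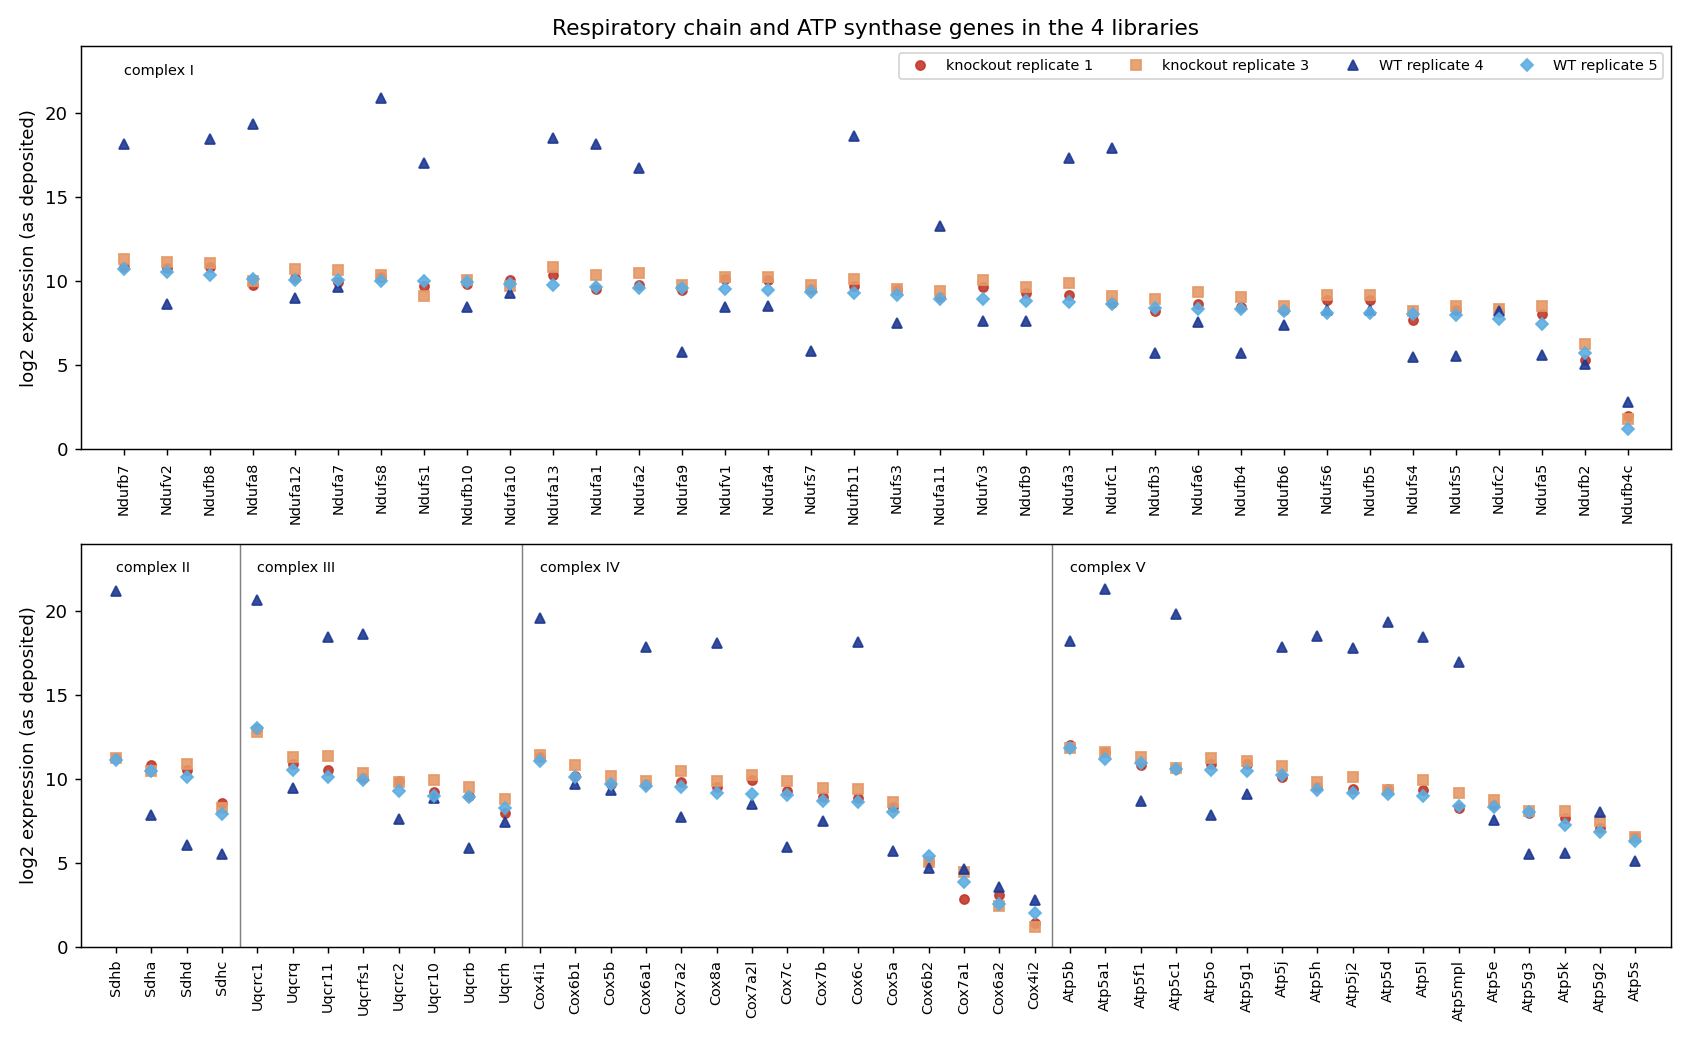
Log2 expression as deposited (vertical axis) of 80 of the 81 genes in knockout replicates 1 and 3 and WT replicates 4 and 5, each point 1 library, with genes ordered within each complex by WT replicate 5. The knockout libraries and WT replicate 5 lie close together, and WT replicate 4 (dark triangles) lies at 16.71 to 21.28 for 28 genes and mostly below the others for the rest.

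The knockout libraries were not alike, and each was also set alone against WT replicate 5. In knockout replicate 1, 62 of 81 genes lay above WT replicate 5 (against 57.7% of all tested genes and 55.3% of those of at least log2 5), with a median difference of 0.22 (0.006 over all tested genes). In knockout replicate 3, 72 of 81 lay above it (against 50.7% and 49.3%), with a median of 0.58 (0.02 over all tested genes). Knockout replicate 3 exceeded knockout replicate 1 in 66 of 81 members (against 46.3% and 42.3%), by a median of 0.33. Within the 3 libraries numbered 1 in their titles, knockout replicate 1 lay above both WT libraries in 35 of 81 genes, against 28.2% of all tested genes and 44.6% of those of at least log2 5. The count against both WT libraries within that set was thus above the share of all tested genes but close to that of genes of at least log2 5, and the count against WT replicate 5 was above both of its backgrounds.

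Between the complexes, the differences from WT replicate 5 were of similar size. The median over members was 0.39 log2 in complex I, 0.35 in complex II, 0.44 in complex III, 0.39 in complex IV and 0.32 in complex V. The knockout mean was higher than WT replicate 5 in 33 of 37, 4 of 4, 7 of 8, 12 of 15 and 17 of 17 genes of these complexes. Over all tested genes it was higher in 9326 of 17303, and over those of at least log2 5 in 4680 of 9058. In the fit with all 4 libraries the medians spread out to 0.74 in complex I, 1.597 in complex II, 0.58 in complex III, -0.01 in complex IV and -3.11 in complex V. The complexes also differed in WT replicate 4: the share of members over 3 log2 above the other libraries was 32.4% in complex I, 25% in II, 37.5% in III, 26.7% in IV and 52.9% in V. The medians of complexes IV and V depended on scaling, with -0.15 and -3.24 after median centring and 0.41 and -0.03 after quantile normalization. Members of a complex are not replicates, so the complexes were described side by side and not tested against each other.

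**Figure D2:**
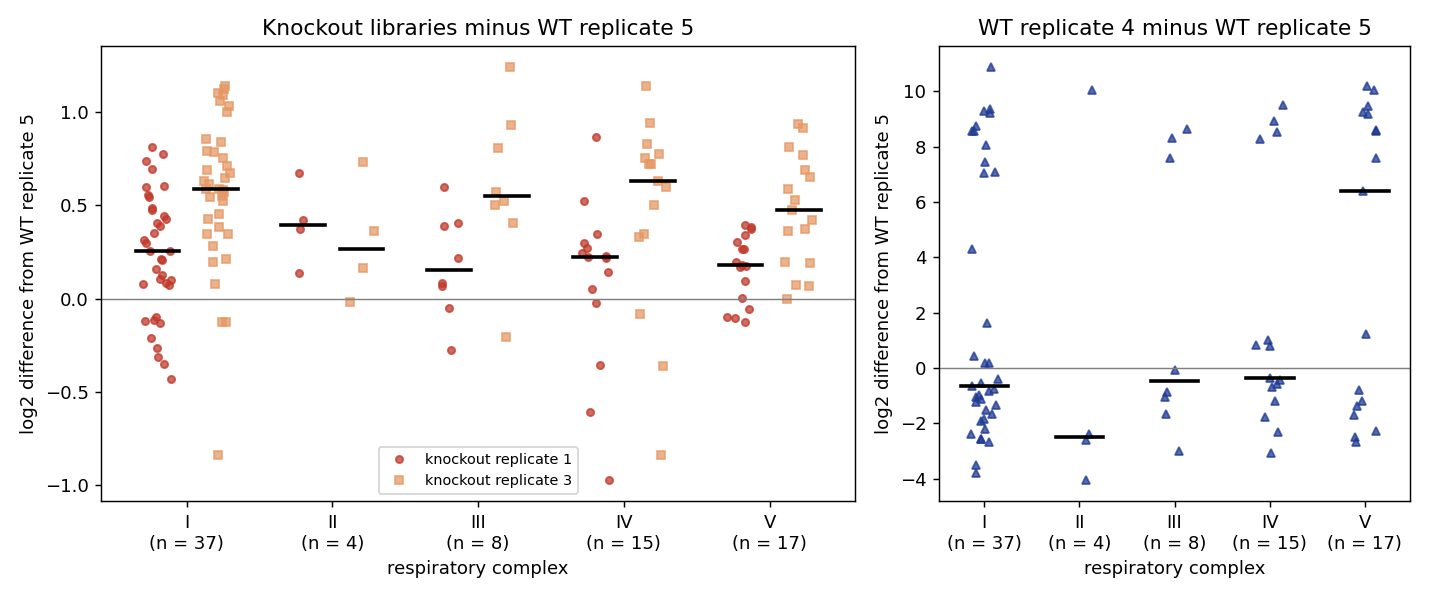
Log2 difference from WT replicate 5 (vertical axes) for each gene of complexes I to V (horizontal axis), for knockout replicates 1 and 3 in the left panel and WT replicate 4 in the right panel, with bars at the median. The medians of the knockout libraries lie between 0.15 and 0.63 in every complex, whereas WT replicate 4 splits into genes far above WT replicate 5, by up to 10.89 log2, and genes below it, by up to 4.07 log2.

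Complex I, the NADH dehydrogenase, is built from an NADH-oxidising N module, a ubiquinone-reducing Q module and a proton-pumping membrane arm. In the N module both knockout values exceeded WT replicate 5 in 7 of 10 genes, in the Q module in 5 of 6 and in the membrane arm in 14 of 20. The share was 41.8% over all tested genes and 39.5% over those of at least log2 5. Both knockout values exceeded both WT values in 6, 4 and 5 genes of these modules, against 17.3% and 31.1%. The median differences of the modules from WT replicate 5 were 0.45, 0.33 and 0.38 log2. With both WT libraries they were 0.96, 1.63 and 0.08, and WT replicate 4 was over 3 log2 above the other libraries in 2, 1 and 9 genes of these modules.

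Ndufb5, a membrane arm subunit (chromosome 3, 32736990 to 32751566, plus strand, GRCm38), had 8.91 and 9.20 in the knockout pair, against 8.28 and 8.09 in WT replicates 4 and 5. The groups did not overlap, and the WT libraries lay close to each other. The limma difference was 0.87 (SE 0.72, adjusted p = 0.826), and the difference from WT replicate 5 was 0.96 (SE 0.26, adjusted p = 0.477), a 1.95-fold higher level. Ndufs6, an N module subunit with a zinc-binding fold, had 8.86 and 9.15 in the knockout pair, against 8.30 and 8.12 in WT. It likewise had 2 WT values that agreed within 0.18 log2, and its limma difference was 0.80 (SE 0.72, adjusted p = 0.826), or 0.88 (SE 0.26, adjusted p = 0.482) without WT replicate 4. Ndufv3, a small flavoprotein subunit of the N module, had 9.64 and 10.07 in the knockout pair, against 7.63 and 8.95 in WT. Ndufa5, a Q module subunit, had 8.05 and 8.54, against 5.60 and 7.45. Both were without overlap, but their WT libraries differed by more than 1 log2.

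Among the catalytic subunits, Ndufv1, which binds the flavin and NADH, had 10.12 and 10.25 in the knockout pair, against 8.45 and 9.57 in WT. Its knockout values lay above both WT values, and the step over WT replicate 5 was 0.61 log2. Ndufs1, the large iron-sulfur subunit of the N module (chromosome 1, 63143596 to 63176833, minus strand), lay on the other side, with 9.72 and 9.15 in the knockout pair, against 17.02 and 9.99 in WT. The knockout pair was lower than both WT libraries, and the limma difference was -4.07 (SE 2.74, adjusted p = 0.826) with all libraries and -0.55 (SE 0.37, adjusted p = 0.655) without WT replicate 4. Ndufa8, an accessory subunit of the membrane arm, also lay lower, at 9.81 and 9.996 against 19.34 and 10.12. Most of its limma difference of -4.83 (SE 3.63, adjusted p = 0.826) came from WT replicate 4, and without that library it was -0.22 (SE 0.21, adjusted p = 0.748).

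The remaining genes of complex I show how WT replicate 4 set the sign. Ndufs8, an iron-sulfur subunit of the Q module, had 10.26 and 10.39 in the knockout pair, against 20.90 and 10.01 in WT, and Ndufa9, a neighbour in the same module, had 9.48 and 9.77, against 5.80 and 9.58. The knockout libraries and WT replicate 5 lay within 0.38 log2 of each other in both genes, while WT replicate 4 was far above in Ndufs8 and below in Ndufa9. Ndufa1 (9.52 and 10.40, against 18.19 and 9.64) and Ndufc1 (8.70 and 9.15, against 17.92 and 8.63), both of the membrane arm, followed the pattern of Ndufs8. Ndufa4, named for complex I but known to be a subunit of complex IV, had 10.05 and 10.28 in the knockout pair, against 8.51 and 9.49 in WT, and an assignment that counted it in complex IV and left out Cox7a2l kept the median of complex IV at -0.01 in the fit with all libraries.

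Complex II, the succinate dehydrogenase, holds 4 subunits. The flavoprotein Sdha had 10.86 and 10.47 in the knockout pair, against 7.87 and 10.49 in WT. The iron-sulfur subunit Sdhb had 11.24 and 11.27, against 21.16 and 11.10. Relative to WT replicate 5 the knockout mean was higher by 0.18 log2 in Sdha and 0.15 in Sdhb, with WT replicate 4 on opposite sides. The membrane anchors Sdhc and Sdhd lay higher in both knockout libraries: Sdhc had 8.57 and 8.25, against 5.51 and 7.89 in WT, and Sdhd (chromosome 9, 50596357 to 50603812, minus strand) had 10.55 and 10.86, against 6.06 and 10.13. Their limma differences were 1.71 (SE 1.01) and 2.61 (SE 1.56), and 0.52 (SE 0.27) and 0.58 (SE 0.25) without WT replicate 4. None of these passed, with adjusted p of 0.826 for both genes in the fit with all libraries and 0.597 and 0.544 without WT replicate 4.

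Complex III, the cytochrome bc1 complex, had 6 of 8 genes in which the knockout pair exceeded WT replicate 5 and 1 gene in which it lay below. Over all tested genes these shares were 41.8% and 33.4%. The knockout pair lay above both WT libraries in 4 of 8 genes and below both in 1. These shares were 17.3% and 18.8% of all tested genes, and 31.1% and 8.85% of those of at least log2 5. Uqcrc2, a core protein, had 9.87 and 9.80 in the knockout pair, against 7.62 and 9.27 in WT. Uqcrq, a small subunit, had 10.90 and 11.32, against 9.46 and 10.51. In both genes the groups did not overlap. The other core protein, Uqcrc1, had 12.98 and 12.82, against 20.63 and 13.03, so its knockout values were lower than both WT values but within 0.21 log2 of WT replicate 5. The Rieske iron-sulfur protein Uqcrfs1 had 10.05 and 10.38, against 18.62 and 9.97, and Uqcrb, which is part of the quinone-binding region, had 8.99 and 9.49, against 5.91 and 8.92. Uqcr11, a small accessory subunit, was 0.82 log2 above WT replicate 5, with 10.51 and 11.34 in the knockout pair, against 18.43 and 10.10 in WT.

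Complex IV, the cytochrome c oxidase, exchanges several subunits between tissues, and the table held both forms of some pairs. The forms known as ubiquitous were present in all libraries. Cox4i1 had 11.31 and 11.43 in the knockout pair, against 19.60 and 11.09 in WT, and Cox5b had 9.68 and 10.20, against 9.35 and 9.70. Cox5a had 8.32 and 8.64, against 5.73 and 8.04, and Cox6b1 had 10.17 and 10.84, against 9.68 and 10.11. In Cox5a and Cox6b1 both knockout values lay above both WT values. Cox6a1 (9.72 and 9.91, against 17.87 and 9.58) and Cox8a (9.51 and 9.88, against 18.08 and 9.16) lay far higher in WT replicate 4. Cox7a2 had 9.81 and 10.46, against 7.73 and 9.52, and Cox7c had 9.27 and 9.86, against 5.94 and 9.03, both without overlap.

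Cox7a2l (chromosome 17, 83501918 to 83517330, minus strand) had the largest difference from WT replicate 5 among the 81 genes. Its values were 9.95 and 10.22 in the knockout libraries (10.08 ± 0.19, SD, n = 2), against 8.48 and 9.08 in WT (8.78 ± 0.42, SD, n = 2). The knockout libraries lay above both WT libraries by at least 0.87 log2, which is more than the spread within either pair. The limma difference was 1.30 (SE 0.85, adjusted p = 0.826), and 1.003 (SE 0.23, adjusted p = 0.477) without WT replicate 4, so neither passed. 

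The tissue-restricted forms of complex IV were near the lower end of the members. Cox4i2, the form induced by low oxygen in lung, had 1.42 and 1.19 in the knockout pair, against 2.81 and 2.03 in WT, with no overlap. Its limma difference was -1.11 (SE 0.67, adjusted p = 0.826), and -0.72 (SE 0.43, adjusted p = 0.629) without WT replicate 4. The heart and muscle forms Cox6a2 (3.08 and 2.47, against 3.58 and 2.55) and Cox7a1 (2.88 and 4.49, against 4.67 and 3.85) overlapped between the groups. Cox6b2, known from testis, had 5.04 and 5.04, against 4.70 and 5.40, and also overlapped. Of the markers of striated muscle and testis, Ckm reached at most 0.79 and Acta1 stayed below 0, while Myh1, Prm1, Prm2 and Tnp1 are listed at exactly 0 in all 4 libraries and give no value. At this end of the range Ndufb4c (1.99 and 1.83, against 2.83 and 1.21) and Cox4i2 were just inside the level needed, and Ndufs6b (-0.93 and -0.93, against -0.65 and -0.93) and Cox6c2 (-2.48 and -3.46, against 9.14 and -2.55) just outside.

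In complex V, the ATP synthase, both knockout libraries lay above WT replicate 5 in 12 of 17 genes, against 41.8% of all tested genes. Both lay below it in 0 genes, against 33.4%. Both lay above both WT libraries in 5 of 17 genes, against 17.3% of all tested genes and 31.1% of those of at least log2 5. They lay below both in 0, against 18.8% and 8.85%. In the catalytic F1 head of complex V the differences from WT replicate 5 were small, with a median of 0.23 log2. Atp5a1, the alpha subunit, had 11.60 and 11.59 in the knockout pair, against 21.28 and 11.22 in WT, and Atp5b, the catalytic beta subunit (chromosome 10, 128083273 to 128090391, plus strand), had 12.004 and 11.83, against 18.22 and 11.83. The delta subunit Atp5d had 9.39 and 9.32, against 19.34 and 9.13. WT replicate 4 was over 3 log2 above the other libraries in 4 of the 5 F1 head genes, in 3 of the 4 accessory genes of the membrane part, in 2 of the 4 genes of the peripheral stalk and in 0 of the 3 c-ring genes.

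The 3 c-ring genes encode an identical mature c subunit in mammals and differ in their import sequences. Atp5g1 had 10.87 and 11.06 in the knockout pair, against 9.08 and 10.47 in WT, with no overlap. Atp5g2 had 7.10 and 7.49, against 8.06 and 6.84, and Atp5g3 had 7.98 and 8.11, against 5.54 and 8.04. Atp5g2 and Atp5g3 overlapped between the groups, with WT replicate 4 above the other libraries in Atp5g2 and below them in Atp5g3. In the peripheral stalk and the membrane part, Atp5o had 10.86 and 11.25, against 7.87 and 10.56, and Atp5k had 7.66 and 8.09, against 5.57 and 7.28. Both were without overlap, with limma differences of 1.84 (SE 1.32) and 1.45 (SE 0.85) and an adjusted p of 0.826 each. Without WT replicate 4 the differences were 0.50 (SE 0.28, adjusted p = 0.608) for Atp5o and 0.59 (SE 0.34, adjusted p = 0.618) for Atp5k. Atp5l (9.32 and 9.92, against 18.46 and 8.98) and Atp5j2 (9.38 and 10.11, against 17.79 and 9.19) were higher than WT replicate 5 in both knockout libraries and far below WT replicate 4. Pseudogene copies were listed as rows of their own, such as Atp5l-ps1 (-2.29 and 0.03, against 7.43 and -2.35) and Atp5l2-ps (3.47 and 3.67, against 9.42 and 1.41). How reads were shared between such copies and their parent genes was not given in the sources used here, so the values of Atp5l are uncertain. Ndufb1-ps, which the symbol rule left out by its name, had 8.66 and 9.11, against 17.65 and 8.57, at levels within the range of the members.

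The authors' deposited table pointed the other way for many members. Its header puts WT before knockout. All 28 genes at 15 or more in WT replicate 4 had a negative fold change and a negative limma difference, so the fold changes are read here as knockout over WT. Of the other 53 members 29 had a negative fold change but only 7 a negative limma difference, so this reading is not certain. At an adjusted p under 0.05 the authors' deposited table called 13 members lower, against 3.94% of tested genes, and 0 higher, against 0.156%. Of complex I these were Ndufa8, Ndufc1, Ndufa1, Ndufb11, Ndufa13, Ndufa2, Ndufb7 and Ndufs1, of complex III Uqcr11, of complex IV Cox4i1 and Cox8a, and of complex V Atp5l and Atp5j2. All 13 belonged to the 28 genes at 15 or more in WT replicate 4. Negative fold changes were not limited to these 28 genes, and among the other 53 they reached -7.00 in Atp5e. That gene had 8.435 and 8.76 in the knockout pair, against 7.55 and 8.34 in WT. The log2 fold changes in the authors' deposited table were -8.46 for Ndufa8 (adjusted p = 0.000709), -7.16 for Cox4i1 (adjusted p = 0.0042) and -7.65 for Atp5l (adjusted p = 0.00359). For Cox4i1 and Atp5l both knockout values nonetheless exceeded WT replicate 5. Of the 28 genes 14 had a p listed at 1 in the authors' deposited table although their fold changes were as large, from -9.43 to -4.86 over the 28. Over all members, 18 had a p listed at 1, against 9.63% of tested genes. The deposited fold change was negative for 57 of the 81 genes, although the knockout pair exceeded WT replicate 5 in 41 of them and both WT libraries in 18. Over all 17303 tested genes it was negative for 10258, of which the knockout pair exceeded WT replicate 5 in 3648 and both WT libraries in 335. Cox7a2l is 1 of these 18, at -3.96 in the authors' deposited table.

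**Figure D3:**
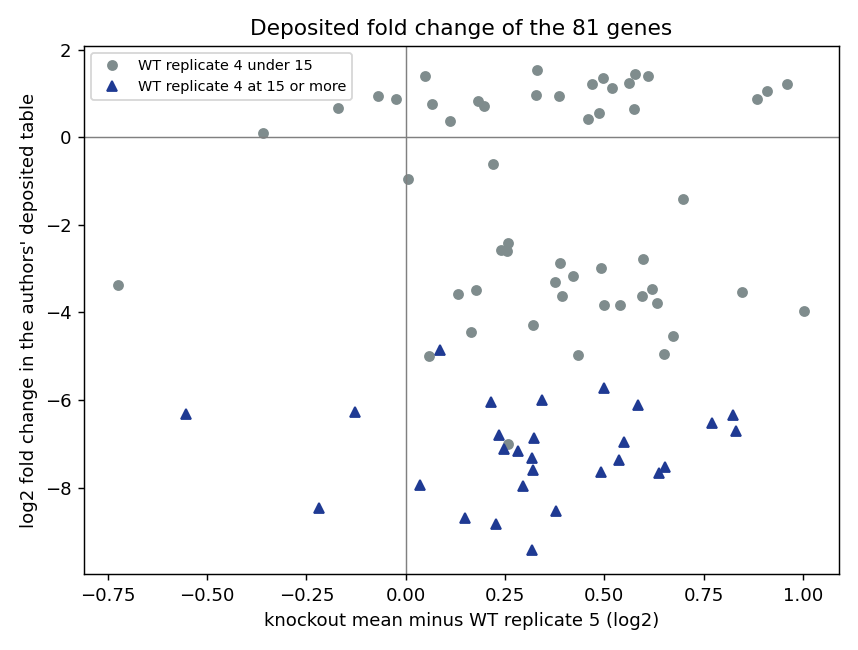
Log2 fold change in the authors' deposited table (vertical axis, read as knockout over WT) against the knockout mean minus WT replicate 5 on the log2 scale (horizontal axis) for the 81 genes, each point 1 gene. The 28 genes at 15 or more in WT replicate 4 (triangles) all lie between -9.43 and -4.86, although most lie right of 0 on the horizontal axis. Of the other 53 genes 29 are also negative, down to -7.00.

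Transcript length moved with the differences of knockout replicate 3. The members are short, with a median transcript of 731 bases, against 2596 over all tested genes with a length. Over 80 members, Spearman's rho between length and the difference from WT replicate 5 was -0.47 in knockout replicate 3 and 0.06 in knockout replicate 1. Over 8723 tested genes of at least log2 5 it was -0.30 and -0.02 (across genes, which share the libraries and are not independent). In knockout replicate 3, tested genes of at least log2 5 had a median difference of 0.72 at up to 600 bases and 0.43 at over 600 to 1000 bases. It was 0.13 at over 1000 to 2000 bases, -0.06 at over 2000 to 5000 bases and -0.61 for longer ones. The members of at least log2 5 in the first 4 of these length classes had 0.76 (27 genes), 0.57 (24 genes), 0.36 (20 genes) and 0.18 (6 genes). Short members in knockout replicate 3 were thus close to other short genes. In knockout replicate 1 the medians of tested genes of at least log2 5 in these 4 classes were 0.16, 0.09, 0.09 and 0.12. Those of the members at that level were 0.25, 0.20, 0.22 and 0.32. Both knockout values exceeded WT replicate 5 in 81.5%, 75%, 75% and 33.3% of the members of at least log2 5 in these 4 classes. Among tested genes at that level the shares were 61.1%, 56.0%, 45.9% and 38.8%. The share was thus above that of other genes in the 3 shorter classes and below it in the fourth, which held 6 members. The part of length in the difference between knockout and WT was not tested.

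**Figure D4:**
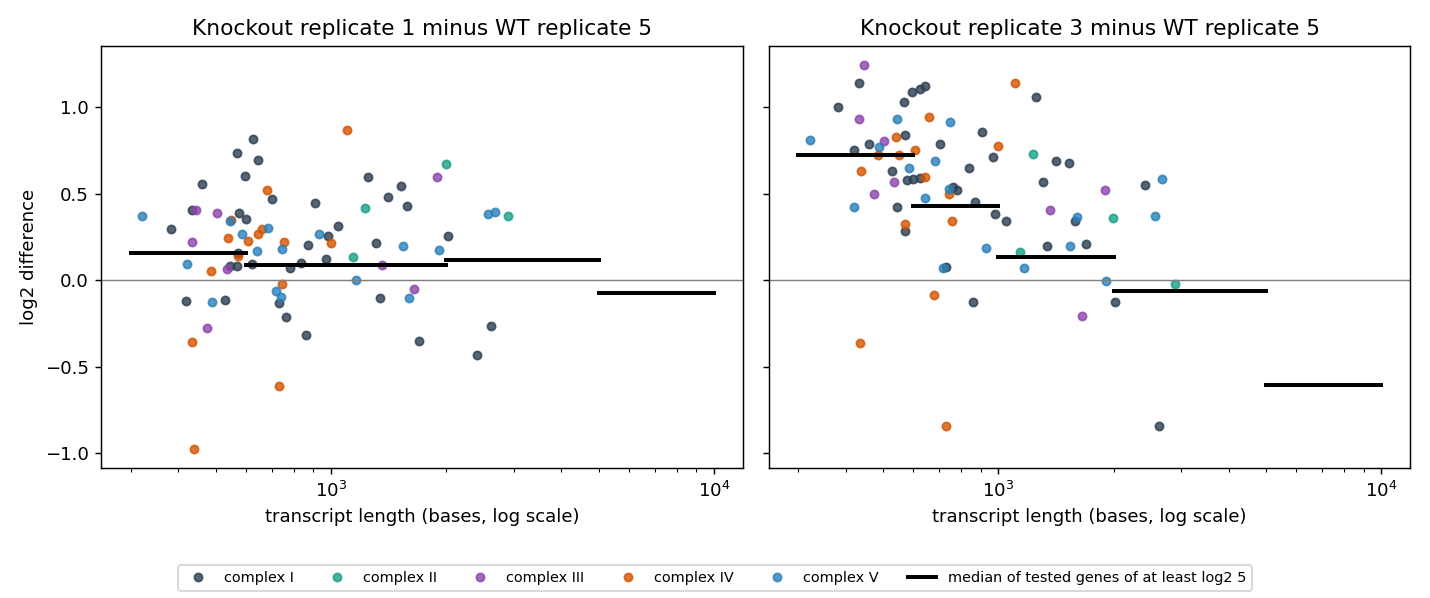
Log2 difference from WT replicate 5 (vertical axis) against transcript length in bases (horizontal axis, log scale) for knockout replicate 1 in the left panel and knockout replicate 3 in the right panel, each point 1 of 80 genes, with black bars at the median of the tested genes of at least log2 5 in each length class. In the right panel short genes lie higher, with medians of these tested genes from 0.72 in the shortest class to -0.61 in the longest. In the left panel the medians stay between -0.07 and 0.16.

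Other genes of the pathway were taken from fixed lists. Limma called none of them in either direction, with or without WT replicate 4, as it called 0 of all tested genes. The authors' deposited table called 4 of 13 mitochondrially encoded subunits lower, 2 of 42 assembly factors, 3 of 8 electron carriers and further subunits and 0 of 11 regulators, against 3.94% of tested genes, and called none of them higher. Against both WT libraries the knockout pair lay above in 2, 17, 1 and 3 genes of these 4 lists, in the same order. It lay below both in 4, 2, 0 and 0. These shares were 17.3% and 18.8% of all tested genes, and 31.1% and 8.85% of those of at least log2 5. The median limma differences of the lists were -0.62, 0.96, -1.02 and 0.43, against -0.09. The counts below stand against 41.8% of all tested genes with the knockout pair above WT replicate 5, 33.4% with it below and a median difference of 0.07. Of the 13 subunits encoded by mitochondrial DNA, both knockout values exceeded WT replicate 5 in 4 (30.8%) and lay below it in 4 (30.8%). The median difference from that library was 0.09 log2. Several of these genes had low values. Of those below, mt-Nd3, mt-Nd4l and mt-Co2 had at most 2.74 in the knockout pair and WT replicate 5. Of those above, mt-Co3 and mt-Atp6 had at most 4.07 in the same libraries. Of mt-Nd1, a membrane subunit of complex I, the values were 11.51 and 11.21 in the knockout pair, against 10.82 and 10.96 in WT, without overlap. For mt-Co1, the catalytic subunit of complex IV, they were 12.62 and 12.56, against 20.11 and 12.80. In mt-Co1 the knockout libraries differed from WT replicate 5 by -0.17 and -0.23 log2 and lay far below WT replicate 4.

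Of 42 assembly factors that were tested, both knockout libraries exceeded WT replicate 5 in 18 (42.9%) and lay below it in 8 (19.0%), with a median of 0.14 log2. The share above was near the background. Cox17, a copper chaperone of complex IV, had 6.80 and 6.94 in the knockout pair, against 7.41 and 8.83 in WT. Cox18, an insertase for complex IV, had 6.46 and 6.57, against 4.97 and 5.13. In both genes the groups did not overlap, and the limma differences of -1.25 and 1.46, or -1.96 and 1.39 without WT replicate 4, were not called. Cox17 was called lower in the authors' deposited table, at -2.22 (adjusted p = 0.0438). So was Surf1, at -4.63 (adjusted p = 0.0336), with 7.12 and 7.91 in the knockout pair, against 5.58 and 7.32 in WT. Of 8 electron carriers and further subunits, both exceeded WT replicate 5 in 4 (50%) and lay below it in 0, with a median of 0.30 log2. Atpif1, the inhibitor of the ATP synthase, had 10.42 and 10.67, against 18.54 and 9.55. Of 11 regulators of mitochondrial biogenesis, 7 (63.6%) lay above WT replicate 5 and 2 (18.2%) below it, with a median of 0.31 log2. Gabpa, the DNA-binding GABP subunit, had 8.02 and 8.09, against 5.50 and 7.14 without overlap. The 2 regulators below WT replicate 5 were Gabpb1 (8.85 and 8.22, against 5.72 and 9.23) and Tfam (7.49 and 7.31, against 7.20 and 7.60). Yy1 had 6.75 and 6.62, against 7.09 and 5.42, and Nrf1 had 9.18 and 8.99, against 5.80 and 9.06, both with overlap.

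The cells carried myeloid transcripts. All 10 myeloid markers were tested, among them Elane, the neutrophil elastase, with 16.48 and 16.55 in the knockout pair, against 23.52 and 15.84 in WT. Their summed linear level was 131401 and 139393 in the knockout pair, against 21964212 and 104187 in WT replicates 4 and 5. Elane was the highest of the 10 in every library and weighs most in this sum, so the sum does not describe the markers evenly. Over all tested genes the same sum was 6116256 and 6294128, against 1020361495 and 6590060, so WT replicate 4 was far above the other libraries in the whole table as well. Both knockout libraries lay above WT replicate 5 in 3 of the 10 (30%, against 41.8% of tested genes), namely Elane, Prtn3 and Ctsg. They lay below it in 6 (60%, against 33.4%). Among these 6 were the progenitor markers Kit (4.23 and 3.56, against 4.55 and 5.35) and Cd34 (3.41 and 2.18, against 3.75 and 5.82). Itgam, a marker of mature myeloid cells, had 8.03 and 7.22, against 18.20 and 9.31. Some markers of other cell types were present. Nkg7, known from natural killer and cytotoxic T cells, had 9.37 and 9.45 in the knockout pair, against 19.38 and 8.41 in WT. Cd79b, a part of the B cell receptor, had 7.41 and 7.18, against 5.16 and 6.996, and the endothelial and platelet marker Pecam1 had 6.59 and 6.11, against 6.93 and 6.10. The B cell marker Ms4a1, the natural killer marker Ncr1 and the endothelial marker Cdh5 stayed below 0 in every library. Cd3e, Cd3g and Lepr are listed at exactly 0 throughout and give no value. Over the 3 tested lymphoid markers the summed linear level was 831 and 849 in the knockout pair, against 681017 and 469 in WT, and over the 2 tested stromal and endothelial markers it was 97.6 and 78.4, against 138 and 69.1. The tested erythroid markers had a summed linear level of 5.70 and 26.4 in the knockout pair, against 122 and 18.0 in WT replicates 4 and 5, and the part of cell composition in the results was not tested.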

How the data were processed

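Leukemia cells were profiled by polyA RNA-seq in 2 YBX1-/- and 2 WT libraries. Per the submitters' processing notes the build was GRCm38 and the tools were CASAVA, HISAT2 2.1.0, featureCounts and DESeq2, without their roles. The authors deposited 1 table of normalized log2 values per gene, by a normalization not given in the sources used here. Each gene's log2 fold change and its raw and adjusted p-values, from the authors' own comparison, stand beside them in the deposited table. A row at exactly 0 in all 4 libraries was read as having no value. The table holds no counts, so no count test was run.

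From these values 17303 genes of at least log2 0 in 2 or more libraries were fitted with limma 3.58.1 in R 4.3.3 with a mean-variance trend, knockout minus WT, with Benjamini-Hochberg adjustment over all of them and a threshold of 0.05. Errors are limma's standard errors or SD. All differences without WT replicate 4 come from the same fit on 3 libraries. The limma step was tested on simulated data. These were drawn around the mean of WT replicate 5 and the knockout libraries, with a spread taken from the knockout pair. No simulated library was like WT replicate 4, so the simulation cannot show how limma performs with that library. Transcript lengths and positions are from the GENCODE annotation of GRCm38 and promoters from RefSeq (GRCm38.p6), with older symbols matched through synonyms. Lists were described by counts, shares and medians beside those of all tested genes, with no test. No column held other samples (0).

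The members, lists and alternatives were chosen with earlier results of these data known. The named genes were a fixed set of subunits and isoform pairs, plus for each complex the genes with the smallest limma p, the widest gap between groups, the smallest adjusted p among those called in the deposited table, and the extremes of WT replicate 4 minus WT replicate 5. Some genes are not reported here. Others named, such as Ndufs6 and the genes of the lists, were chosen after their values were seen. Alternatives covered left-out libraries, pseudocounts, filters, scaling and the trend.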

Additional observations from a re-analysis of the deposited data

How the results depend on the processing

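No paired analysis was possible because the WT libraries are numbered 4 and 5 and the knockout libraries 1 and 3, so no number is shared between the groups. Pseudocounts of 0.1, 0.5 and 1, no filter on low values, a filter of log2 5, limma without the trend, median centring and the assignment of complexes by known subunits changed no call and reversed no named difference; limma called 0 members in each of these. The filter of log2 5, which left fewer members, gave complex IV a median of 0.51, against -0.01 without that filter, and the members one of 0.61. Median centring moved the median difference over all tested genes from -0.09 to -0.23 and quantile normalization moved it to 0.16, while the median over members became 0.40 and 0.56.

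Leaving out 1 library at a time gave 0 to 4960 genes and 0 to 59 members called by limma, the highest counts without WT replicate 5. Members with both knockout values above both WT values numbered 35 to 58, the most without WT replicate 4, and those with both below 5 to 34, the most without WT replicate 5. The median over members ran from 0.26 without knockout replicate 3 to 0.82 without knockout replicate 1, that of complex I from 0.39 to 0.87, and that of complex III from 0.21 without knockout replicate 3 to 0.95 without knockout replicate 1. The median of complex II ran from 0.35 without WT replicate 4 to 2.85 without WT replicate 5, that of complex IV from 0.011 without knockout replicate 3 to 0.39 without WT replicate 4, and that of complex V from -6.30 without WT replicate 5 to 0.32 without WT replicate 4. In these fits the single library left in a group is assumed to vary like the other group. The differences of the named genes that changed sign in at least 1 of these fits ranged from -9.68 to 0.38 for Atp5a1, -6.30 to 0.086 for Atp5b, -9.98 to 0.23 for Atp5d, -0.77 to 0.46 for Atp5g2, -8.05 to 0.55 for Atp5j2, -8.84 to 0.64 for Atp5l, -8.23 to 0.28 for Cox4i1, -8.06 to 0.23 for Cox6a1, -0.81 to 0.22 for Cox6a2, -9.02 to 0.49 for Cox6c, -8.39 to 0.54 for Cox8a, -8.23 to 0.32 for Ndufa1, -0.92 to 0.70 for Ndufb4c, -9.002 to 0.30 for Ndufc1, -10.57 to 0.32 for Ndufs8, -9.91 to 0.15 for Sdhb, -7.50 to 0.82 for Uqcr11, -8.41 to 0.25 for Uqcrfs1, -0.36 to 0.34 for Cox6b2 and -1.38 to 0.22 for Cox7a1. For the genes at 15 or more in WT replicate 4, the sign change is the removal of that library.

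Quantile normalization left 2 members whose knockout pair lay below the WT pair, and differences of 0.91 for Atp5b, 0.32 for Cox4i1, 0.41 for Cox6a2, 0.16 for Cox6b2, 0.61 for Ndufb4c, 1.21 for Uqcr11 and 0.29 for Uqcrc1 changed sign; the cause was not tested. With WT replicate 4 left out and quantile normalization together, 55 members had both knockout values above the remaining WT library, and the differences that changed sign were 0.44 for Atp5a1, 0.23 for Atp5b, 0.18 for Atp5d, 0.45 for Atp5g2, -0.0072 for Atp5g3, 0.49 for Atp5j2, 0.59 for Atp5l, 0.33 for Cox4i1, 0.21 for Cox6a1, 0.14 for Cox6a2, 0.45 for Cox6c, 0.49 for Cox8a, 0.28 for Ndufa1, 0.43 for Ndufb4c, 0.25 for Ndufc1, 0.32 for Ndufs8, 0.19 for Sdhb, 0.84 for Uqcr11, 0.059 for Uqcrc1 and 0.24 for Uqcrfs1. With WT replicate 4 and knockout replicate 3 left out, a setting added after the data had been seen, 62 members lay above and 19 below, and the medians were 0.26 in complex I and 0.15 in complex III. With WT replicate 4 and knockout replicate 1 left out, 72 lay above and 9 below. The comparison of paralog protein sequences was not run. Depth is unknown, so no limit of detection can be given, and 2 libraries in each group leave an exact test no p below 0.333.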
